A study of Mus musculus with 15 samples.

Results

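The respiratory chain and ATP synthase were followed through the tumour libraries as 102 genes of the 25382 rows in the count table, 13 of them carried by the mitochondrial genome and 89 by the nucleus. Members were chosen by name: the protein genes of the mitochondrial genome, the NDUF subunits of complex I, SDHA to SDHD of complex II, the UQCR genes of complex III, COX4 to COX8 of complex IV and the ATP5 genes of complex V. Another 17 rows with such names were dropped, of which 9 were assembly factors, 6 pseudogenes and 2 antisense genes. The table lists the mitochondrial genes without the prefix MT-, so COX1 here is MT-CO1, ND4 is MT-ND4 and CYTB is MT-CYB. By complex the nuclear members comprised 38 of complex I, 4 of complex II, 9 of complex III, 19 of complex IV and 17 of complex V, with NDUFA4 and NDUFA4L2 counted in complex IV. ATP5S and ATP5SL carry the ATP5 name but are no subunits of the enzyme and were kept apart.

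The chain passes electrons from NADH and succinate to oxygen and pumps protons across the inner mitochondrial membrane, and ATP synthase uses the return flow of protons to make ATP. Complexes I, III, IV and V are built from subunits of both genomes, while complex II is wholly nuclear. The mitochondrial genome is copied from both of its strands into long transcripts that are then cut into single messages, and ND6 is the only protein gene read from the light strand. The mitochondrial genome encodes the core of the proton pumps, such as COX1, the catalytic subunit of cytochrome c oxidase, whereas most nuclear members are accessory subunits made in the cytosol and imported.

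The 15 libraries were made from primary tumours that GFP+ Luc+ MDA-MB-231 cells formed in mice labelled Nod/Skid; MDA-MB-231 is an established human line of triple-negative breast cancer. Before injection the cells had been separated by the shear they withstand: 6 libraries came from weakly adherent cells (sheared at 10 dyn per square centimetre), 4 from strongly adherent cells (50 dyn per square centimetre) and 5 from unsorted cells that saw no shear. Tumours were dissociated to single cells and bulk mRNA was sequenced, so fewer cells of a type and less RNA per cell cannot be told apart. Libraries are called by adhesion class and title number (4, 5, 6, 7-8, 9 or 10), a number that the labels leave unexplained. The labels do not say whether libraries of a class came from separate animals, so p-values measure the spread between these samples, which may be partly technical.

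Total counts ran from 30372619 to 45434799 per library. The 3 libraries of number 6 stood apart from the other 12 in CDH1, the epithelial cadherin, and VIM, the vimentin of mesenchymal cells. CDH1 was at 0.267 to 5.56 CPM there and at 53.1 to 549 CPM elsewhere (TMM-scaled CPM, which sets each count against its library's scaled total). VIM was at 6489 to 7399 CPM in number 6 and at 1143 to 4478 CPM elsewhere. Which of these libraries lie nearer to the injected cells was not tested. The 18 striated muscle markers summed to 2981 CPM in strongly adherent library 5, to 1160 CPM in unsorted library 6, to 457 CPM in strongly adherent library 6 and to 181 CPM in weakly adherent library 6, against 6.93 to 16.4 CPM in the other 11. Main results are given with all libraries, and values without number 6 or strongly adherent library 5 follow where they are stated.

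The members chosen as marks of the set were present in every library. COX1 had 8312 to 26580 CPM, ND4 had 5208 to 16470 CPM, and ATP5B, the catalytic beta subunit of ATP synthase, had 449 to 631 CPM. Of the 102 members, 94 passed the filter on low counts (13 mitochondrial and 81 nuclear). The 8 others were tissue-restricted isoforms, a paralog and read-through transcripts: COX6A2 and the read-throughs NDUFC2-KCTD14 and ATP5J2-PTCD1 had no count in any library, while COX4I2 had 2 counts in all, COX8C 4, ATP5L2 8, COX7A1 41 and NDUFA4L2 58. A count of 0 allows up to 3 counts per library, an allowance that covers counting error only.

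Mitochondrial messages varied over the libraries far more than nuclear ones. The highest library over the lowest came to a median of 4.22-fold over the 13 mitochondrial genes, from 3.16-fold for ND4 to 6.69-fold for ND6. For the 77 nuclear members at 20 CPM or more the median was 1.86-fold, from 1.22-fold for UQCRFS1, the Rieske iron-sulfur protein, to 2.93-fold for ATP5I, subunit e of ATP synthase. The nuclear figure was close to the median of 1.73-fold over all 7829 genes tested at that level. In the heat map most mitochondrial rows are high or low in the same libraries, with ND5 and ND6 as exceptions.

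**Figure D1:**
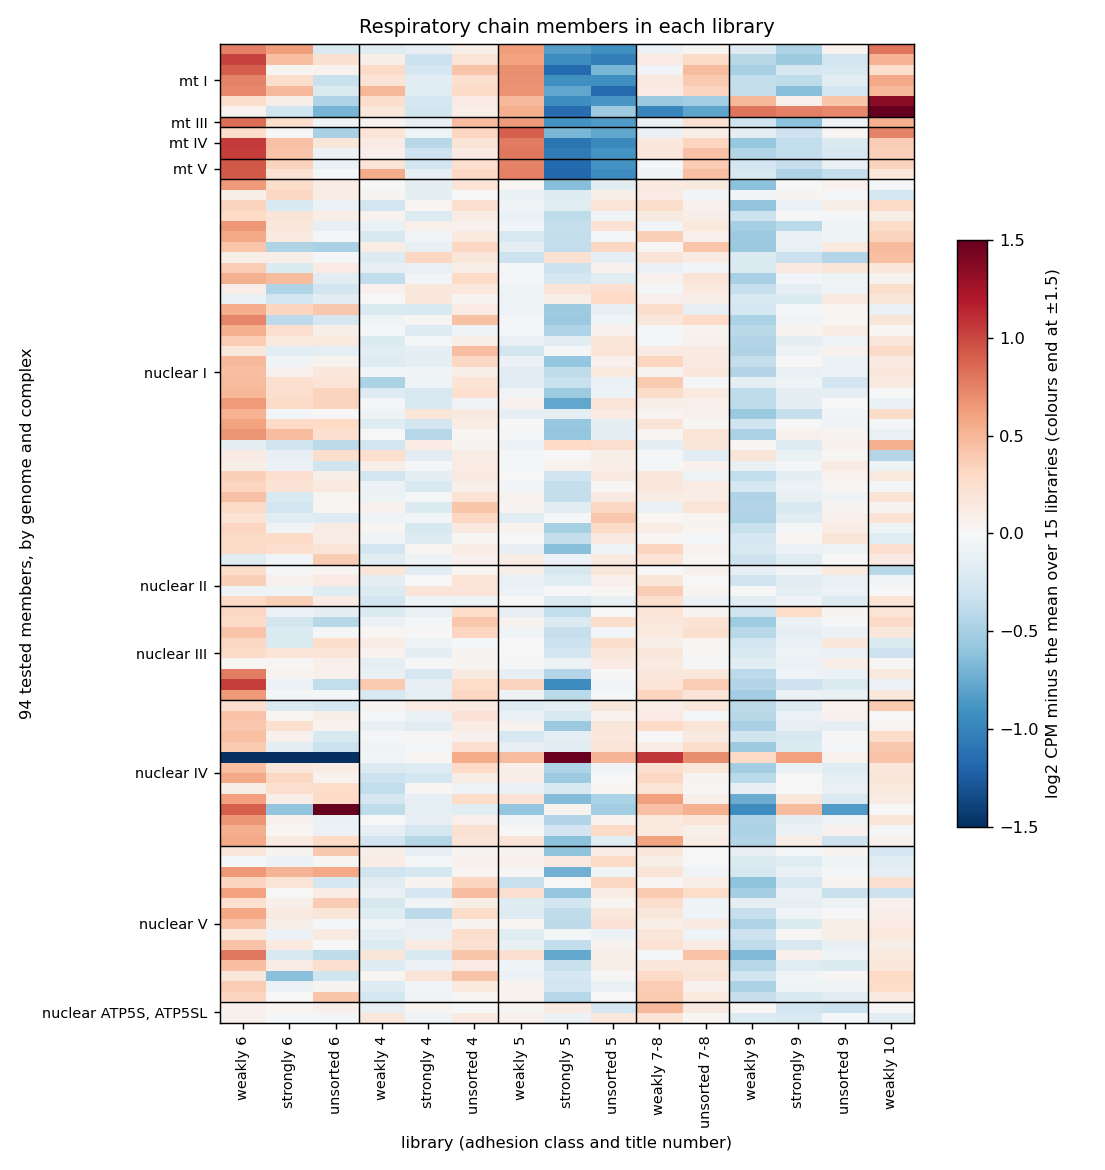
Each row is a tested member (94, grouped by genome and complex), each column a library (adhesion class and title number, number 6 at the left), and colour gives log2 CPM minus the row's mean over the 15 libraries. The mitochondrial rows are high in weakly adherent libraries 5 and 6 and low in strongly adherent and unsorted library 5, and the dark blue row of complex IV in number 6 is COX6B2.

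The 13 mitochondrial genes took a larger share of the counts in tumours of weakly adherent cells on average, but the classes overlapped. The share was 7.04% in weakly adherent library 4, 10.6% in library 5, 10.2% in library 6, 6.57% in library 7-8, 5.78% in library 9 and 9.93% in library 10. Strongly adherent libraries 4, 5, 6 and 9 gave 5.70%, 3.71%, 7.77% and 5.35%. Unsorted libraries 4, 5, 6, 7-8 and 9 gave 7.65%, 3.65%, 5.66%, 7.55% and 6.30%. Class means were 8.37 ± 2.14% (SD, n = 6) for weakly adherent, 5.63 ± 1.67% (SD, n = 4) for strongly adherent and 6.16 ± 1.64% (SD, n = 5) for unsorted libraries. Weakly adherent libraries 5, 6 and 10 lay above every strongly adherent and unsorted library, and weakly adherent libraries 4, 7-8 and 9 lay inside their range. Without number 6 the class means were 7.99 ± 2.16% (SD, n = 5), 4.92 ± 1.06% (SD, n = 3) and 6.29 ± 1.86% (SD, n = 4) in the same order, and the lowest weakly adherent library, at 5.78%, lay just above the highest strongly adherent one, at 5.70%. Without strongly adherent library 5 as well, the remaining 2 strongly adherent libraries averaged 5.52%.

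The nuclear members together made up 0.652 to 0.893% of the counts, with both ends in weakly adherent libraries (9 and 6). Here the strongly adherent class was low against the unsorted one only. Their share was 0.676 to 0.763% in strongly adherent libraries and 0.770 to 0.837% in unsorted libraries, which did not overlap. In summed CPM the nuclear members came to 7219, 6261, 7856 and 7136 in strongly adherent libraries 4, 5, 6 and 9, against 8415, 8106, 8101, 8070 and 7465 in unsorted libraries 4, 5, 6, 7-8 and 9. On this scale the classes did overlap, since strongly adherent library 6 exceeded unsorted library 9, but within each of the 4 shared title numbers the strongly adherent library was lower. Weakly adherent libraries had nuclear sums from 6041 (library 9) to 9838 (library 6), with a median of 7780, and spanned both other classes. Of the complexes, nuclear complex III separated strongly adherent from unsorted libraries on the CPM scale too, with sums of 786 ± 60.1 (SD, n = 4) and 919 ± 48.6 (SD, n = 5) CPM and no overlap. Without number 6 the complex III sums were 777 ± 70.0 (SD, n = 3) and 927 ± 52.1 (SD, n = 4) CPM, and without strongly adherent library 5 as well the 2 remaining strongly adherent libraries averaged 817 CPM, still below the lowest unsorted one at 859 CPM. The nuclear shares also stayed apart, at 0.731 to 0.749% in these 2 strongly adherent and 0.770 to 0.837% in the unsorted libraries.

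**Figure D2:**
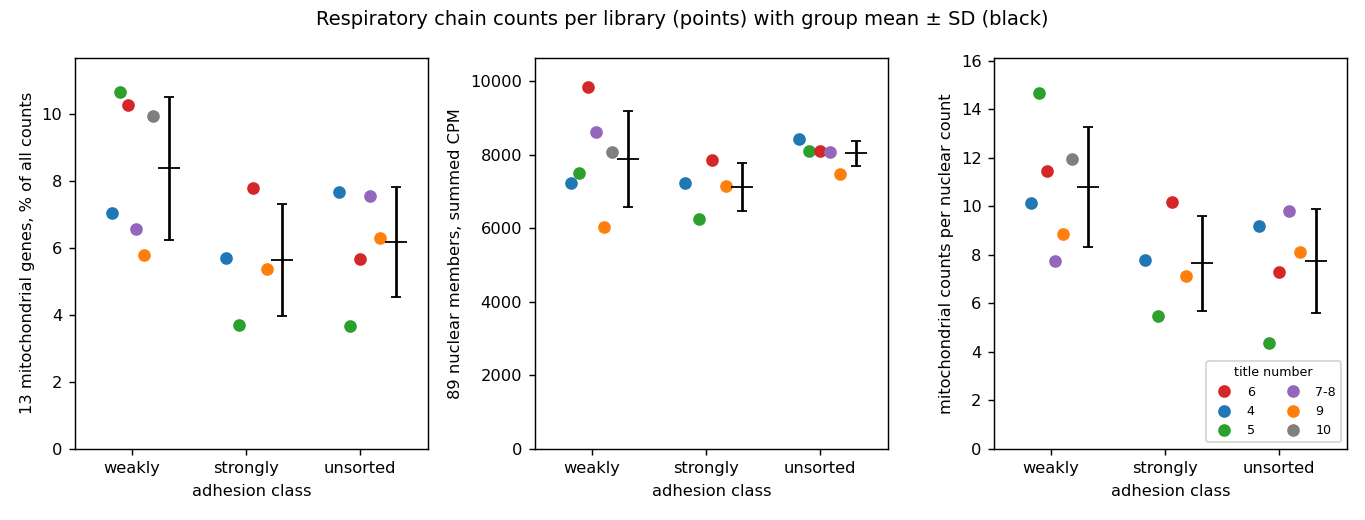
Points are libraries coloured by title number and black bars are the mean ± SD of an adhesion class. The panels give the share of counts on the mitochondrial genes (left), the summed CPM of the nuclear members (middle) and mitochondrial counts per nuclear count (right), in which weakly adherent libraries average 10.8.

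The balance of the 2 genomes was measured as mitochondrial counts per nuclear member count. It averaged 10.8 ± 2.47 (SD, n = 6) in weakly adherent, 7.65 ± 1.95 (SD, n = 4) in strongly adherent and 7.76 ± 2.13 (SD, n = 5) in unsorted libraries. Within numbers, weakly adherent libraries 4, 5, 6 and 9 had 10.1, 14.7, 11.5 and 8.86, against 7.80, 5.48, 10.2 and 7.14 in the strongly adherent libraries of the same numbers. The weakly adherent library was the higher in all 4 numbers, by 1.28 counts per nuclear count in number 6 and 9.22 in number 5. The number is not shown to pair these libraries, since the deviations of weakly and strongly adherent libraries of the same number correlated at 0.0164 (number 5) to 0.767 (number 6). The same order held in all 4 numbers when each complex was taken alone: for complex IV the ratio was 23.8 ± 5.97 (SD, n = 6) in weakly and 17.1 ± 3.66 (SD, n = 4) in strongly adherent libraries, and for complex V 4.32 ± 1.07 (SD, n = 6) and 2.95 ± 0.950 (SD, n = 4). Against unsorted libraries the weakly adherent one had the higher ratio in 4 of 5 numbers, with 7.76 against 9.81 in number 7-8 as the exception. In numbers 4 and 9, however, its mitochondrial sum was the lower (73110 against 77480 and 53500 against 60630 CPM). Its nuclear sum was lower too (7217 against 8415 and 6041 against 7465 CPM). Strongly adherent library 9 had 50940 mitochondrial and 7136 nuclear CPM. Without number 6 the ratio averaged 10.7 ± 2.74 (SD, n = 5) in weakly adherent, 6.81 ± 1.19 (SD, n = 3) in strongly adherent and 7.87 ± 2.44 (SD, n = 4) in unsorted libraries, and without strongly adherent library 5 as well 7.47 in the 2 strongly adherent libraries left.

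Setting tumours of weakly adherent cells against those of strongly adherent cells asks whether the adhesion of the injected cells left a mark on the chain's messages in the tumour. No member passed the threshold (edgeR's quasi-likelihood test, adjusted p under 0.05), nor did any of the 15190 genes tested, so the background was 0%. At an unadjusted p under 0.05 there were 7 of 94 members (7.45%), 6 of them mitochondrial, and 366 genes (2.41%). DESeq2 and limma-trend also called 0 genes. All the same, the 13 mitochondrial genes all had a positive fold change, with a median log2 fold change of 0.64, and 75 of 81 nuclear members did, with a median of 0.14. Over all genes tested 46.0% were positive and the median was -0.017. The members come from the same libraries, so their equal signs are not independent of each other.

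COX1 illustrates the mitochondrial set. Weakly adherent libraries had 12960, 16870 and 26580 CPM as lowest, median and highest, and strongly adherent libraries 4, 5, 6 and 9 had 13710, 8902, 14270 and 11542 CPM. The log2 fold change was 0.60 ± 0.26 (SE), 95% interval 0.06 to 1.15, adjusted p = 1 by edgeR. It was 0.72 without number 6 and 0.57 without strongly adherent library 5 as well. Weakly adherent libraries 7-8 and 9 lay inside the strongly adherent range, so the classes overlapped. The fold changes of the others ran from 0.45 ± 0.30 (SE) for ND1, a core subunit of complex I, to 0.71 ± 0.31 (SE) for ATP8, a small subunit of ATP synthase. ATP6, ATP8, COX1, CYTB, ND3 and ND4 had unadjusted p from 0.0314 to 0.0496.

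Within title numbers most mitochondrial genes kept 1 direction. ATP6, ATP8, COX1, CYTB, ND2, ND4, ND4L, ND5 and ND6 were higher in the weakly adherent library of all 4 shared numbers, which is 9 of 13 mitochondrial genes (69.2%). Among all genes tested 5.16% were higher in all 4 and 6.16% lower in all 4, and of the 81 nuclear members 1 was higher (ATP5SL) and 0 lower. Over the 3 numbers left without number 6 the mitochondrial count was also 9 of 13, beside 12.2% of all genes, and over the 2 left without strongly adherent library 5 as well it was 9 of 13, beside 22.0%. The exceptions lay in numbers 9 and 4. COX2, which receives electrons from cytochrome c, had 5967 CPM in the weakly and 6836 CPM in the strongly adherent library of number 9. COX3 and ND3 were lower there too. ND1 had 2657 and 2768 CPM in the weakly and the strongly adherent library of number 4. No member separated the classes fully, whereas 0.165% of all genes tested were higher in every weakly adherent library and 0.125% lower in every one.

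Among nuclear members UQCRHL had the smallest unadjusted p. It is a near-identical copy of UQCRH, the hinge protein of complex III, so reads of one may be counted on the other. UQCRHL had 5.00, 8.19 and 13.9 CPM as lowest, median and highest in weakly adherent libraries and 6.22, 3.53, 6.37 and 5.48 CPM in strongly adherent libraries 4, 5, 6 and 9. The classes overlapped and the log2 fold change was 0.64 ± 0.26 (SE), adjusted p = 1 by edgeR. It came to 0.33 without number 6 and strongly adherent library 5. By complex the median was 0.13 for complex I (34 of 37 positive), 0.058 for complex II (4 of 4), 0.20 for complex III (9 of 9), 0.19 for complex IV (12 of 14) and 0.18 for complex V (14 of 15).

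The mitochondrial values were positive for all 13 genes whichever library was left out, with medians from 0.45 without strongly adherent library 5 to 0.85 without strongly adherent library 6. Without number 6 and strongly adherent library 5 together the median was 0.58 for the mitochondrial genes and 0.069 for the nuclear ones. Leaving out weakly adherent library 6 alone brought the nuclear median to 0.059. Muscle markers moved with this comparison, with 1 of 17 tested markers positive and summed levels of 9.34 to 181 CPM in weakly and 13.6 to 2981 CPM in strongly adherent libraries. COX6A2, the heart and skeletal muscle isoform of complex IV, had 0 counts in every library and COX7A1, another muscle isoform, 7 counts in strongly adherent library 5. MB, muscle myoglobin, was at 0.568 CPM there, whereas the muscle genes ACTA1 and CKM were at 864 and 467 CPM in that library. Immediate early and dissociation genes had 2 of 12 positive and macrophage and leukocyte markers 6 of 6. The part of other cells in the result was not tested.

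**Figure D3:**
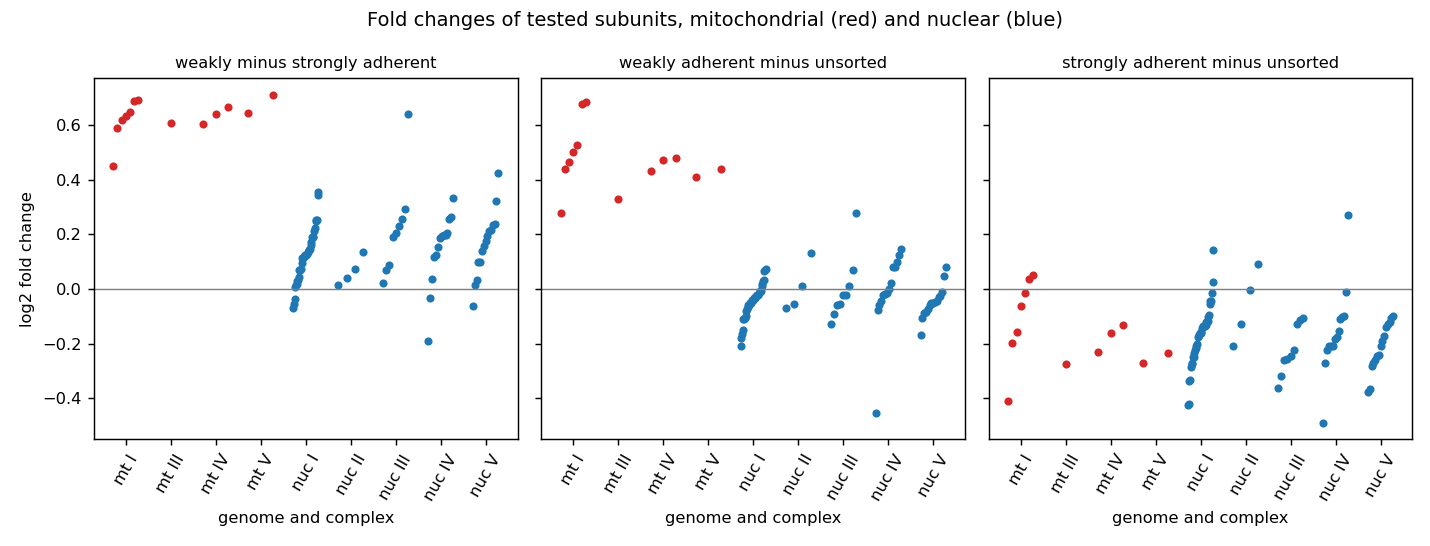
Each point is a tested subunit, placed by genome and complex (mt, mitochondrial, red; nuc, nuclear, blue) with its log2 fold change in the named comparison. The mitochondrial points lie above 0 in both comparisons of weakly adherent libraries, and nuclear points lie mostly below 0 for strongly adherent against unsorted libraries.

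Between weakly adherent and unsorted origin, no member and no gene passed (edgeR, background 0%), and DESeq2 and limma-trend called 0 genes. Unadjusted p was under 0.05 by edgeR for 1 member (1.06%) and 81 genes (0.533%). The comparison shares its weakly adherent libraries with the one above. The 13 mitochondrial genes were all positive, with a median log2 fold change of 0.46, while 22 of 81 nuclear members were positive, with a median of -0.032. All genes tested had a median of 0.00, with 49.9% positive. ND5, a core subunit of complex I, had the smallest p: 1147, 2184 and 4291 CPM as lowest, median and highest in weakly adherent libraries, against 1831, 915, 1232, 1178 and 2245 CPM in unsorted libraries 4, 5, 6, 7-8 and 9. The classes overlapped and the log2 fold change was 0.68 ± 0.31 (SE), adjusted p = 1 by edgeR. The highest value is weakly adherent library 10, a number with no unsorted library, and without it the log2 fold change was 0.42.

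Within title numbers the direction varied. None of the 13 genes was higher in the weakly adherent library of all 5 shared numbers, beside 1.38% of all genes tested, and the share of counts was higher in 2 of 5, numbers 5 and 6. COX7B2, a paralog of a complex IV subunit, was lower in all 5, beside 1.52% of all genes. No member separated the classes, and 0.0263% of all genes were higher and 0.0461% lower without overlap. The mitochondrial median stayed between 0.31 and 0.57 with any one library left out and was 0.33 without number 6. The nuclear median changed with single libraries: it was 0.036 without weakly adherent library 9 (55 of 81 positive), -0.003 without weakly adherent library 4 (39 positive), -0.018 without unsorted library 4 (36 positive) -0.12 without weakly adherent library 6 (9 positive) and -0.11 without all of number 6 (11 positive).

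Between strongly adherent and unsorted origin, the nuclear subunits were mostly lower, again without any call (edgeR, background 0%). DESeq2 and limma-trend called 0 genes. Unadjusted p was under 0.05 by edgeR for 3 members (3.19%) and 572 genes (3.77%). In all, 76 of 81 nuclear members had a negative fold change, including 9 of 9 in complex III and 15 of 15 in complex V, and the median was -0.17. All genes tested had 53.7% positive and a median of 0.020. The mitochondrial genes had a median of -0.16, with 11 of 13 negative. Its libraries also serve in the comparisons above, so the directions are not independent between them.

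NDUFS6, an accessory subunit of complex I that binds zinc, had the smallest p among members. It had 41.7, 43.3, 39.5 and 41.2 CPM in strongly adherent libraries 4, 5, 6 and 9, against 64.4, 59.7, 49.0, 54.9 and 49.5 CPM in unsorted libraries 4, 5, 6, 7-8 and 9. All strongly adherent libraries lay below all unsorted ones. The log2 fold change was -0.42 ± 0.13 (SE), adjusted p = 0.975 by edgeR, and with the title number as a block it was -0.43 with adjusted p = 0.561. Without number 6 the log2 fold change was -0.45, and without strongly adherent library 5 as well -0.47.

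NDUFS8, an iron-sulfur subunit of the arm of complex I that takes electrons from NADH, had 67.4, 56.2, 76.5 and 77.7 CPM in strongly adherent libraries 4, 5, 6 and 9 and 87.8, 96.6, 86.0, 81.6 and 85.5 CPM in unsorted libraries 4, 5, 6, 7-8 and 9. UQCRC1, a core protein of complex III, had 147, 123, 133 and 144 CPM in the strongly adherent and 152, 185, 185, 158 and 172 CPM in the unsorted libraries in the same order. Neither gene's classes overlapped, and the log2 fold changes were -0.33 ± 0.13 (SE) and -0.32 ± 0.12 (SE), each with adjusted p = 0.975 by edgeR. Without number 6 and strongly adherent library 5 they were -0.29 for NDUFS8 and -0.21 for UQCRC1. NDUFV3 of complex I and SDHA, the flavoprotein of complex II, did not overlap either, which makes 5 of 81 nuclear members (6.17%) below every unsorted library, beside 0.876% of all genes tested. No member lay above every unsorted library, beside 0.54% of all genes.

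Within title numbers, 29 of 81 nuclear members (35.8%) were lower in the strongly adherent library of all 4 shared numbers, beside 9.03% of all genes tested. The count was 49 of 81 (60.5%) over the 3 numbers left without number 6, beside 18.1% of all genes, and 50 of 81 (61.7%) over the 2 left without strongly adherent library 5 as well, beside 25.1%. The 29 included ATP5A1 and ATP5B, the catalytic core of ATP synthase, and UQCRFS1, SDHB and COX5A. NDUFA5 of complex I was higher in all 4, beside 10.7% of all genes, and ND3 was the only mitochondrial gene lower in all 4. The nuclear median ran from -0.24 without strongly adherent library 6 to -0.13 without strongly adherent library 5, and was -0.24 without number 6 and -0.17 without number 6 and strongly adherent library 5. The mitochondrial median was less steady, at -0.009 without strongly adherent library 5 (6 of 13 positive), -0.47 without strongly adherent library 6, -0.31 without unsorted library 5, -0.11 without unsorted library 4, -0.091 without unsorted library 7-8 and -0.46 without number 6. Muscle markers were positive for 17 of 17 tested in this comparison, with summed levels of 13.6 to 2981 CPM in strongly adherent and 6.93 to 1160 CPM in unsorted libraries; their part in the result was not tested.

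Title number 6 was set against the mean of the other 5 numbers, adjusted for adhesion class. The fit called 4242 genes (27.9%), 1757 higher (11.6%) and 2485 lower (16.4%). Among the 94 members 9 passed (9.57%), all nuclear, with 7 higher and 2 lower. The share of members called was thus below that of all genes. In direction 75 of 94 members were positive, with a median of 0.43 for the mitochondrial and 0.23 for the nuclear genes, against 50.9% positive and a median of 0.011 over all genes tested.

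Of the 7 that rose, ATP5C1, the gamma subunit that forms the rotating stalk of ATP synthase, had the smallest p. It had 264, 239 and 250 CPM in weakly adherent, strongly adherent and unsorted library 6, and 102, 159 and 193 CPM as lowest, median and highest in the other 12. All 3 libraries of number 6 lay above all others, and the log2 fold change was 0.72 ± 0.13 (SE), adjusted p = 0.00197 by edgeR. NDUFAB1, the mitochondrial acyl carrier protein that is also a subunit of complex I, had 75.2, 64.3 and 68.3 CPM in the same 3 libraries and 35.5, 47.7 and 61.6 CPM as lowest, median and highest elsewhere. It did not overlap either, with a log2 fold change of 0.54 ± 0.12 (SE) and adjusted p = 0.00804 by edgeR.

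The others that rose were NDUFC1 (log2 fold change 0.58), NDUFB7 (0.55), NDUFB9 (0.50) and NDUFB6 (0.43), accessory subunits of the membrane arm of complex I, and UQCRC2, a core protein of complex III (0.32), with SE from 0.10 to 0.15 and adjusted p from 0.0128 to 0.0305 by edgeR. In all, 6 of 81 nuclear members lay above every other library without overlap and 1 below, beside 5.63% and 10.4% of all genes tested. NDUFB6 overlapped, since strongly adherent library 6 had 82.3 CPM, below weakly adherent library 7-8 at 83.9 CPM and unsorted library 4 at 82.7 CPM.

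COX6B2, the testis isoform of a complex IV subunit, fell furthest. It had 5, 4 and 5 counts in weakly adherent, strongly adherent and unsorted library 6, against 19 to 76 counts in each of the other 12. The log2 fold change was -2.69 ± 0.45 (SE), adjusted p = 0.00134 by edgeR, on very low levels throughout. COX6B1, the isoform found in most tissues, had 178, 122 and 108 CPM in the libraries of number 6 in the same order and 93.3 to 179 CPM in the others. NDUFC2, an accessory subunit of complex I, had 18.2, 16.4 and 15.4 CPM in number 6 and 16.7, 21.0 and 29.2 CPM as lowest, median and highest elsewhere, with a log2 fold change of -0.43 ± 0.13 (SE) and adjusted p = 0.0316 by edgeR.

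**Figure D4:**
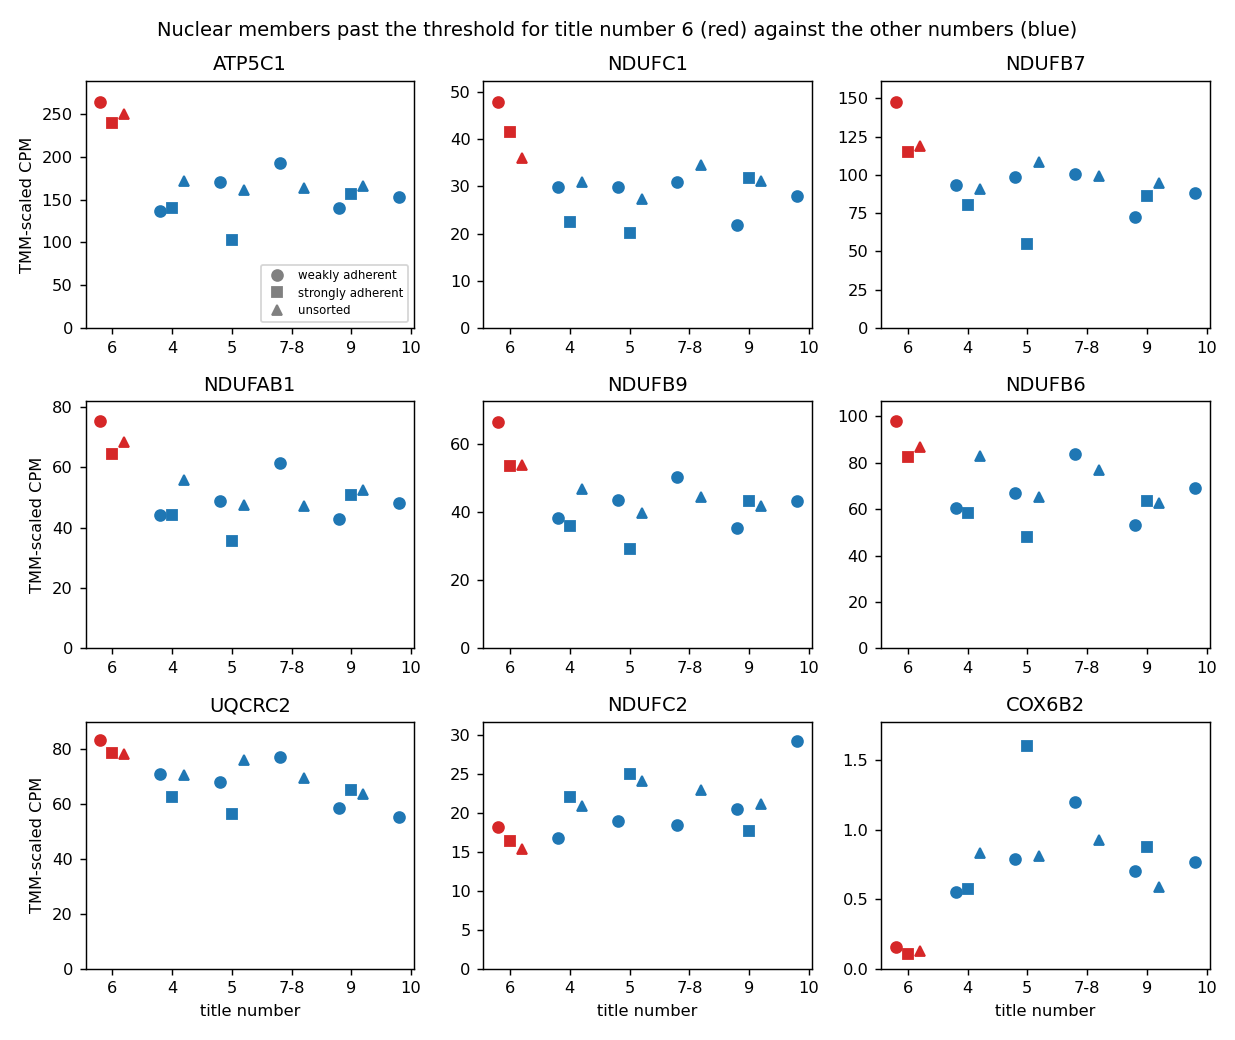
TMM-scaled CPM of the 9 members past the threshold, by title number, with number 6 in red and the symbol giving the adhesion class. ATP5C1, NDUFC1, NDUFB7, NDUFAB1, NDUFB9 and UQCRC2 lie above every other library in number 6, COX6B2 lies below, and NDUFB6 and NDUFC2 overlap.

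The member calls depended on single libraries, in number 6 and outside it. UQCRC2 and NDUFC2 were both lost without any one of weakly adherent library 10, strongly adherent library 4, unsorted library 7-8 or unsorted library 9. Without weakly adherent library 6 there were 11 member calls, of which 2 were higher (ATP5C1 and NDUFAB1) and 9 lower, among them COX4I1, COX6B1, UQCR11 and NDUFA9. Without strongly adherent library 6 there were 4, COX7B2, ATP5C1 and NDUFAB1 higher and COX6B2 lower, and the number of genes called was 1981. Without unsorted library 6 there were 21, without strongly adherent library 9 there were 19, and without weakly adherent library 5 there were 14, 5 of them mitochondrial (ND2, COX2, COX3, ATP8 and ATP6). ATP5C1, NDUFAB1 and COX6B2 passed in each of the 15 fits with a library left out. DESeq2 called 18 members, including ND2.

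No mitochondrial gene passed for number 6. ND2, a core subunit of complex I, came nearest, with 9004, 6111 and 5207 CPM in weakly adherent, strongly adherent and unsorted library 6 and 2178, 4214 and 6788 CPM as lowest, median and highest elsewhere. The log2 fold change was 0.67 ± 0.24 (SE), adjusted p = 0.0571 by edgeR. Elsewhere among the title numbers no member passed. Numbers 4, 5 and 10 called 0 genes (0%), number 7-8 called 10 genes (0.0658%) and number 9 called 3 (0.0197%), and at an unadjusted p under 0.05 numbers 4, 5, 7-8, 9 and 10 had 0, 4, 4, 12 and 6 of 94 members (0, 4.26, 4.26, 12.8 and 6.38%), beside 5.50, 9.06, 5.36, 10.0 and 14.3% of all genes tested. Number 10 is a single library, so its test takes the spread from the other numbers. These contrasts were fitted with edgeR alone.

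The make-up of the mitochondrial counts differed between title numbers. Of the counts on the 13 genes, COX1 took 15.3%, 17.8% and 17.3% in weakly adherent, strongly adherent and unsorted library 6, and 19.4 to 25.9% in the other 12. COX2 took 16.2%, 14.95% and 17.0% in number 6 and 11.2 to 14.7% in the others, and ND2 took 7.98%, 7.63% and 8.83% against 6.05 to 7.28%. The 3 libraries of number 6 therefore lay outside the range of the others for these 3 genes, whatever their adhesion class. These shares were not tested.

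ND5 and ND6 took their highest shares in numbers 9 and 10. ND6 was at 772, 749 and 734 CPM in weakly adherent, strongly adherent and unsorted library 9 and at 1343 CPM in weakly adherent library 10, against 226 and 257 CPM in weakly adherent and unsorted library 7-8 and 201 to 645 CPM in all libraries of numbers 4, 5, 6 and 7-8. As a share of the 13-gene counts ND6 took 1.21 to 1.47% in numbers 9 and 10 and 0.325 to 0.862% elsewhere, and ND5 took 3.49 to 4.45% and 1.49 to 2.76%. These 4 libraries did not overlap with the other 11 for either share, and the shares were not tested. For ND6 the log2 fold change against the other numbers was 0.83 ± 0.22 (SE) for number 9 (adjusted p = 0.333) and -1.27 ± 0.30 (SE) for number 7-8 (adjusted p = 0.239) by edgeR. For number 10, a single library, the ND6 value was 1.45. Transcription of the heavy strand also crosses the ND6 region, and no source used here gives the strand setting of the counting, so ND6 reads and antisense reads cannot be told apart. ND4L and ND4 overlap, as do ATP8 and ATP6, so their single values are uncertain.

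**Figure D5:**
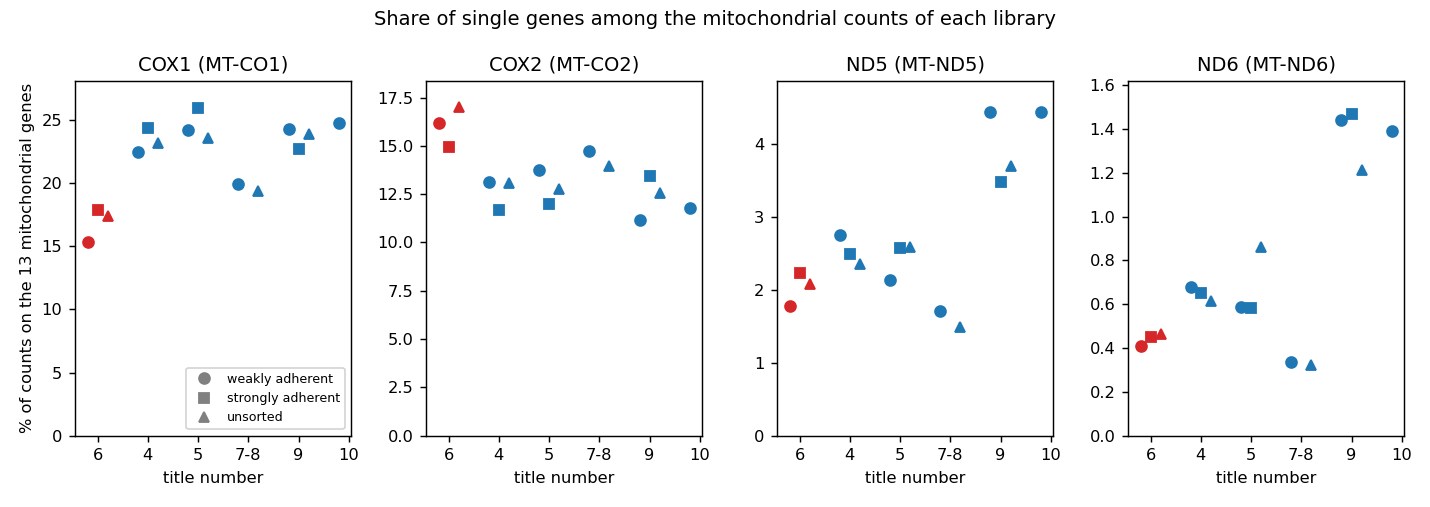
Share of the counts on the 13 mitochondrial genes taken by COX1, COX2, ND5 and ND6, in percent, by title number (number 6 in red; symbols give the adhesion class). COX1 is lowest and COX2 highest in number 6, and ND5 and ND6 are highest in numbers 9 and 10.

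Isoforms of complex IV and V that mark other tissues were low or had no count. COX4I1, the common isoform of subunit IV, had 162 to 278 CPM, while its lung isoform COX4I2 had 2 counts in all. COX6A1 had 188 to 319 CPM and COX7A2 83.1 to 180 CPM. COX7B2 was the exception: it had 28.3 CPM in unsorted library 6 and 15.3 CPM in weakly adherent library 6, but 5.48 CPM in strongly adherent library 6 and 4.27 to 11.98 CPM in the other 12, with a log2 fold change of 1.02 ± 0.40 (SE) and adjusted p = 0.0851 for number 6 by edgeR. ATP5G1, ATP5G2 and ATP5G3 encode the same mature c subunit of ATP synthase, and none passed in a comparison over all libraries. NDUFA4L2, a paralog of NDUFA4 known to be induced in hypoxia, had 0 to 10 counts per library, and 0, 3 and 3 in weakly adherent, strongly adherent and unsorted library 6.

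Other mitochondrial genes were described by the same fits. Counts for number 6 in these lists stand beside 27.9% of all genes called, 11.6% higher and 16.4% lower. The 77 mitochondrial ribosomal proteins, which translate the 13 mitochondrial messages, had 64 positive for weakly against strongly adherent libraries (median 0.092), 29 for weakly adherent against unsorted (-0.029) and 11 for strongly adherent against unsorted (-0.13). In number 6, 18 of 77 rose (23.4%) and 0 fell (median 0.24), among them MRPL22 (log2 fold change 0.62, adjusted p = 0.000941 by edgeR) and MRPS18B (0.53, adjusted p = 0.00216). Genes of mitochondrial transcription and RNA handling had 11 of 26 positive for weakly against strongly adherent libraries (median -0.028), and 0 passed. In number 6, 5 of 26 rose and 1 fell (23.1% called), with C10orf2, the mitochondrial DNA helicase, at 0.60 (adjusted p = 0.00263 by edgeR). Regulators of mitochondrial biogenesis had 5 of 14 positive for weakly against strongly adherent libraries (median -0.051), and in number 6 MYC (0.95) and SIRT3 (0.43) were the 2 of 14 that rose (14.3%).

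Assembly and supply genes made up the remaining lists. Complex I assembly factors had 9 of 13 positive for weakly against strongly adherent libraries (median 0.079), and in number 6 ECSIT (0.60) and NDUFAF2 (0.46) rose (15.4%). Assembly factors of complexes II to V had 18 of 30 positive (median 0.064), and in number 6, 6 of 30 rose and 1 fell (23.3% called), led by LYRM7 (0.67), a factor for inserting the Rieske protein. CYC1 and CYCS, cytochromes c1 and c, had log2 fold changes of 0.11 and 0.14 for weakly against strongly adherent libraries and did not pass in number 6 (adjusted p = 0.153 and 0.059 by edgeR). Citric acid cycle genes had 5 of 13 positive (median -0.015), and in number 6 IDH3B (0.47), SUCLG1 (0.35) and OGDH (0.29) were the 3 of 13 that rose (23.1%). The shares called among assembly factors and citric acid cycle genes lay below the 27.9% of all genes. Mitochondrial ribosomal RNAs were not analysed here.

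Genes of other states and some markers of other cell types also differed in number 6, while the sums of endothelial, adipocyte and erythrocyte markers lay inside the range of the other libraries. The counts below stand beside 27.9% of all genes called for number 6, 11.6% higher and 16.4% lower. Of 12 hypoxia and glycolysis genes 9 rose and 1 fell (83.3% called), with summed levels of 10920 to 11450 CPM in number 6 and 4227 to 8628 CPM in the other 12. CA9 rose by 2.52 on the log2 scale (adjusted p = 0.000148 by edgeR). Of 12 immediate early and dissociation genes 8 rose and 0 fell (66.7% called), with sums of 2098 to 3099 CPM in number 6 and 961 to 2871 CPM elsewhere. Of 17 tested muscle markers 7 rose and 1 fell (47.1% called), in the sums given above. Fibroblast markers had 4 of 8 lower (50.0% called), with sums of 223 to 413 CPM in number 6 and 443 to 1361 CPM elsewhere. Endothelial markers had 3 of 6 higher and 1 lower (66.7% called, 27.8 to 37.5 CPM in number 6, 27.8 to 42.8 CPM elsewhere). Macrophage and leukocyte markers had 1 of 6 higher and 3 lower (66.7% called, 123 to 206 and 74.4 to 129 CPM). Adipocyte markers had 1 of 3 lower (33.3% called, 23.8 to 26.8 and 23.2 to 54.0 CPM) and erythrocyte markers 0 of 2 called (1.07 to 2.46 and 0.457 to 3.94 CPM). TYROBP, ADIPOQ and HBA2 were at 0 in every library. The part of these states and cells in the values of the respiratory chain was not tested, and no list member of these groups passed in the comparisons between adhesion classes.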

How the data were processed

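The authors deposited raw counts per human gene symbol and a second table of log2 values, which equal log2 of the count over a size factor plus 1 to within 5.15e-14 when recomputed. The submitters' processing notes name STAR, HTSeq, cutadapt, FastQC and DESeq2 and build hg19, with no versions; per the labels' protocols, libraries were TruSeq Stranded and reads 50 bp single-end. No source used here gives the strand setting of the counting. The organism label is mouse, so reads of the host that align to human genes may be among the counts, and reads of nuclear copies of mitochondrial genes may be counted on either.

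Counts of all genes were fitted in R 4.3.3 with edgeR 4.0.16 (TMM, filterByExpr, robust quasi-likelihood, all 15 libraries, adhesion class as the only term; the title number added for its contrasts), two-sided, with Benjamini-Hochberg adjustment over 15190 genes and a threshold of 0.05. Standard errors were derived from the F statistic. DESeq2 1.42.0 and limma 3.58.1 on the deposited log2 values were alternatives, beside other scalings, no filter, each library left out, number 6 left out and a block. Deviations of strongly adherent and unsorted libraries of the same number correlated at 0.280 to 0.750 in 4 pairs. Strongly adherent library 5 correlated more with unsorted library 4 (0.434) than with unsorted library 5 (0.280). Strongly adherent library 4 correlated more with unsorted library 7-8 (0.602) than with unsorted library 4 (0.525). The number is thus not shown to pair these libraries either. Libraries within a class all differed by more than sampling noise. The fit was tested on simulated data.

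Named are the mitochondrial genes, ATP5B, abundant members of each complex, isoforms of complexes IV and V, members past the threshold or of smallest p, and leading genes of the lists. CDH1 and VIM were planned as marks of epithelial and mesenchymal state, with earlier results of these data known. ACTA1, CKM and genes in counts of 5 or fewer were named after their values were seen, as were the counts of libraries that do not overlap or share a direction. Class means and within-number counts without number 6 or strongly adherent library 5 were chosen after seeing the data. Members and lists were chosen with earlier results of these data known.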

Additional observations from a re-analysis of the deposited data

Results flagged for a closer look

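Over 171 sets of values (50 members and 7 sums or ratios, each in 3 adhesion classes), in 4 a single library lay far from the others by Dixon's criterion (2.34%, where chance gives about 1 in 20). ATP5C1 was at 250.0 CPM in unsorted library 6, against 161 to 172 CPM in the other unsorted libraries. ATP5A1, the alpha subunit of ATP synthase, was at 501 CPM in the same library, against 380 to 408 CPM. NDUFC1 was at 48.0 CPM in weakly adherent library 6, against 21.8 to 30.9 CPM in the other weakly adherent libraries. NDUFC2 was at 29.2 CPM in weakly adherent library 10, against 16.7 to 20.5 CPM in the other weakly adherent libraries.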

How the results depend on the processing

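The 3 comparisons of adhesion classes called 0 members under each alternative run and 0 genes under each but one: DESeq2 with the title number as a replicate block called 30 genes for weakly against strongly adherent libraries and 23 for strongly adherent against unsorted libraries, none of them members, and the cause was not tested. With the replicate block in edgeR, 0 genes were called in all 3, and the block changed no call of a member. Correlations of libraries with the same number ran from 0.0164 to 0.767 for weakly and strongly adherent libraries. They ran from 0.0328 to 0.683 for weakly adherent and unsorted libraries. Over all classes 11 of 13 pairs of the same number lay above 0.1, against a median of -0.0264 over 61 pairs of different numbers. In all, 9 of 14 libraries correlated best with their own number. Libraries of a number thus deviated together in part, but the number is not shown to pair each of them. The spread between libraries (biological coefficient of variation) was 33.6% in the fit by class and 22.4% with the number added. For number 6 against the rest, DESeq2 called 18 members in place of 9, and the cause was not tested. With each library left out that comparison called 4 to 21 members and 1981 to 4231 genes. The difference in mitochondrial share was 2.09 to 3.45 percentage points for weakly against strongly adherent, 1.58 to 2.72 for weakly adherent against unsorted and -1.25 to 0.111 for strongly adherent against unsorted libraries with each library left out. No called value of a named member changed sign under the alternatives run. Of 945 values of named members for number 6, called or not, 19 changed sign. For weakly against strongly adherent libraries 34 of 912 did, in 7 of 38 named members. It was 47 of 912, in 14 of 38, for weakly adherent against unsorted libraries. For strongly adherent against unsorted libraries 40 of 984 changed sign, in 12 of 41. Classes of 4 to 6 libraries and counts under 80 per library, as for COX6B2, limit precision.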
